A study of Mus musculus with 2 samples.

Results

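Nuclear-encoded oxidative phosphorylation genes were followed through the cell classes of 2 single-cell libraries of mouse skin. Members were chosen by symbol: names starting with Ndufa, Ndufb, Ndufc, Ndufs, Ndufv, Uqcr, Atp5, Cox4, Cox5, Cox6, Cox7 or Cox8, or equal to Sdha, Sdhb, Sdhc or Sdhd, with at least 100 counts over both libraries. Of 55353 symbols in the files, 108 matched by name and 97 met the count limit. Among these, 7 with pseudogene names were set apart, which left 90 genes: 37 of complex I, 8 assembly factors of complex I, 4 of complex II, 8 of complex III, 16 of complex IV and 17 of complex V. Ndufb1-ps was kept with complex I despite its name. It had 21284 counts and is annotated as a long non-coding RNA of a bidirectional promoter. The count limit used the same measurements that follow, so the overall abundance of the members is a description of the choice and not a finding.

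Oxidative phosphorylation takes place in the inner mitochondrial membrane. Complexes I and II pass electrons from NADH and succinate to ubiquinone, complex III hands them to cytochrome c, and complex IV reduces oxygen. Protons pumped by complexes I, III and IV drive ATP synthesis by complex V, and all but complex II also hold subunits encoded in the mitochondrial genome. Some subunits of complex IV exist as alternative isoforms that are known for particular tissues or for low oxygen.

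The study profiled dorsal skin of C57BL/6 mice aged 7 weeks by single-cell 3′ RNA sequencing, in 1 library from skin treated with imiquimod and 1 from skin treated with Shi-Bi-Man and imiquimod. Imiquimod is a Toll-like receptor 7 agonist used on mouse skin as a model of psoriasis, and Shi-Bi-Man is named in the series as a natural product given against it. Every sample therefore carried imiquimod and no untreated skin was compared here. With 1 library per group no test between treatments was possible. The labels do not say how many animals went into each library, and a difference between the libraries cannot be told apart from a difference between animals, dissociations or library preparations. The second library is called the combination below.

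The imiquimod library held 28920316 counts in 11316 barcodes and the combination library 20837259 counts in 8054 barcodes. After filtering, 11019 and 7863 cells remained, with medians of 1616 and 1780 counts. The libraries shared 49 barcodes. Clustering without the members or the mitochondrially encoded genes gave 27 clusters, and 16 cell classes could be named from marker genes. In the 11 classes with at least 100 cells in each library, all of a class's own markers were detected in both libraries, except 1 of 12 in dermal papilla-like and 2 of 13 in suprabasal keratinocyte-like cells. Levels are counts per 1000000 counts of a class (CPM). A summed list of 6 erythroid genes was higher in the imiquimod library in each of these classes (for example 1638 against 11.8 CPM in fibroblast-like cells), and its part in the results below was not tested. Brackets hold 95% exact intervals, which cover counting error only, and log2 ratios are combination over imiquimod.

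The members just inside the limit of 100 counts were the pseudogenes Atp5pb-ps with 105 counts and Atp5l-ps1 with 122 counts. Just outside it were Atp5l-ps2 with 94 counts and Uqcrh-ps1 with 82 counts. Apart from pseudogenes, the lowest members were Cox7a1 with 239 counts and Cox4i2 with 294 counts, both isoforms of complex IV subunits. The highest were Ndufa4 with 56766 counts, Cox6c with 44029 and Cox6a1 with 37198, also assigned to complex IV. Below the limit lay the muscle isoforms Cox6a2 (28 counts) and Cox8b (62 counts) and the copy Ndufa11b (32 counts). Cox4i1, the general isoform of subunit IV, and Ndufa13, a subunit of complex I, are listed at 0 in both libraries, as are Cox7b2, Cox8c, Ndufb4c and Ndufs5-ps. Nothing can be read from these zeros about Cox4i1 or Ndufa13, since genes of that kind are in use in every cell with mitochondria. Cox6c2 and Ndufs6b are processed pseudogenes in the GENCODE vM21 annotation and close copies of Cox6c and Ndufs6, so their counts are uncertain.

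Promoter sequence was available from the RefSeq table of GRCm38.p6 for 73 of the 90 genes, as 300 bases from 250 before to 50 after the gene's start. Searching both strands, 22 of 73 members (30.1%) held GCGCANGCG, a form of the binding site of nuclear respiratory factor 1, which is known as a regulator of respiratory chain genes. Of all 27025 promoters given there, 7.03% held it. The stricter GCGCATGCG, which is contained in the first, was in 10 members (13.7%) and 1.95% of all genes. The ETS-type site CCGGAAG was in 19 members (26.0%) against 9.93%, and the YY1-type site AAGATGGC in 11 members (15.1%) against 3.19%. Matches are letters in a window and show no binding. The 4 members below hold both NRF1-type forms and the ETS-type site; capitals mark these matches on either strand. They lie at chr5:108434350-108434649 (minus strand), chr9:44920693-44920992 (minus strand), chr5:115348909-115349208 (minus strand) and chr10:80406772-80407071 (minus strand), and encode small subunits of complexes V, V, IV and III.
Atp5k: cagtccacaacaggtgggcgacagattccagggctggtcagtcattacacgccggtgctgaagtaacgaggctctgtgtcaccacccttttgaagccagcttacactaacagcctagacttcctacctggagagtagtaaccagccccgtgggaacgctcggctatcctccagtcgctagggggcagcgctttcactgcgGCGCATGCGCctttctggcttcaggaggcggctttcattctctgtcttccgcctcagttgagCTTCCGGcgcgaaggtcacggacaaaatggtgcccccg
Atp5l: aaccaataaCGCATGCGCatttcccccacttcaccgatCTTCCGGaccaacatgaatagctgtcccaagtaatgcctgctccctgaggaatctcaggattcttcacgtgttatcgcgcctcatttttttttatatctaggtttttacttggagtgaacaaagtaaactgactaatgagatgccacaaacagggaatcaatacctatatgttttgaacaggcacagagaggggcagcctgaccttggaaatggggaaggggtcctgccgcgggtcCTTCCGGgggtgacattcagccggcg
Cox6a1: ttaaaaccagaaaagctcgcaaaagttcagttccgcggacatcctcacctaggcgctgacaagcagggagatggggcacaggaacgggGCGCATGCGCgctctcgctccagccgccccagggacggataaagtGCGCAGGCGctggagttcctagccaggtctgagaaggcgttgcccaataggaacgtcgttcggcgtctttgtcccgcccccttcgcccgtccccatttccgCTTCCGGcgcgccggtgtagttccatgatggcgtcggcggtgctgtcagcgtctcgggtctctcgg
Uqcr11: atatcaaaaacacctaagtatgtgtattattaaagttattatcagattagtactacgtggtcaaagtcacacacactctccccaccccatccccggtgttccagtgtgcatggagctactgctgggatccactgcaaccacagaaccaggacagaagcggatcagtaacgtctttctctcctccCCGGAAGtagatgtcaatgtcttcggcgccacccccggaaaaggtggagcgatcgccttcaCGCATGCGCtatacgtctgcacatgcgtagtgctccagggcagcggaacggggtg

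The members with the most restricted levels, described further below, are Cox4i2, Cox6b2, Cox7a1 and Ndufa4l2, and the table held 2 of them. Neither Cox6b2, at chr7:4753045-4753344 (minus strand), nor Cox7a1, at chr7:30183921-30184220 (plus strand), held any of the 4 motifs, so their windows are shown without capitals for comparison with the set above. That these letters are missing says nothing about the factors named.
Cox6b2: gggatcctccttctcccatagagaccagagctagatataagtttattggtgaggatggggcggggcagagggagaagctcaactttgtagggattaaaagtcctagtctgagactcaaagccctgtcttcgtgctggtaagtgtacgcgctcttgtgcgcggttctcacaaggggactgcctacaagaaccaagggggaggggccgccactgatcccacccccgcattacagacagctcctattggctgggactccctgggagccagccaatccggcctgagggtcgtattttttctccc
Cox7a1: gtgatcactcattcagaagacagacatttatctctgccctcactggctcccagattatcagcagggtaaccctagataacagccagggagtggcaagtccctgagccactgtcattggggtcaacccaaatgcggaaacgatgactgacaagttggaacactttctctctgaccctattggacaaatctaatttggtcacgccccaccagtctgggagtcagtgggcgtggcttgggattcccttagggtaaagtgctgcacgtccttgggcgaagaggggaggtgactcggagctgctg

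Sebaceous gland-like cells had the highest summed level of the 90 genes in both libraries, at 46442 CPM with imiquimod and 41282 CPM with the combination. This was 2.05-fold and 2.15-fold over the median class, among 13 and 11 classes with at least 100 cells. In the imiquimod library the next levels were close together: 31229 CPM in stress keratin keratinocyte-like cells, 31180 in basal and outer root sheath keratinocyte-like cells and 30864 in upper hair follicle keratinocyte-like cells. Pericyte and smooth muscle-like cells followed at 29017 CPM. The middle of the order held suprabasal keratinocyte-like (22752 CPM), T and NK cell-like (22623), Langerhans cell-like (20745) and macrophage and monocyte-like cells (19880). Lymphatic endothelial-like cells had 18878 CPM and blood endothelial-like cells 18204 CPM. Fibroblast-like cells (14844 CPM) and dermal papilla-like cells (14378 CPM) were at the bottom. No spread over samples exists for these levels, so neighbours in the order could be compared by counting error alone.

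With the combination the order was similar at the top. Pericyte and smooth muscle-like cells stood second at 29628 CPM, ahead of basal and outer root sheath keratinocyte-like cells at 28655. Dermal papilla-like cells stood sixth at 19205 CPM, and fibroblast-like cells were last at 15314 CPM. As a share of each cell's own counts, the median sebaceous gland-like cell gave 4.50% and 3.90% to the 90 genes, against 2.002% and 1.74% over all cells. The median fibroblast-like cell gave 1.41% and 1.38%.

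**Figure D1:**
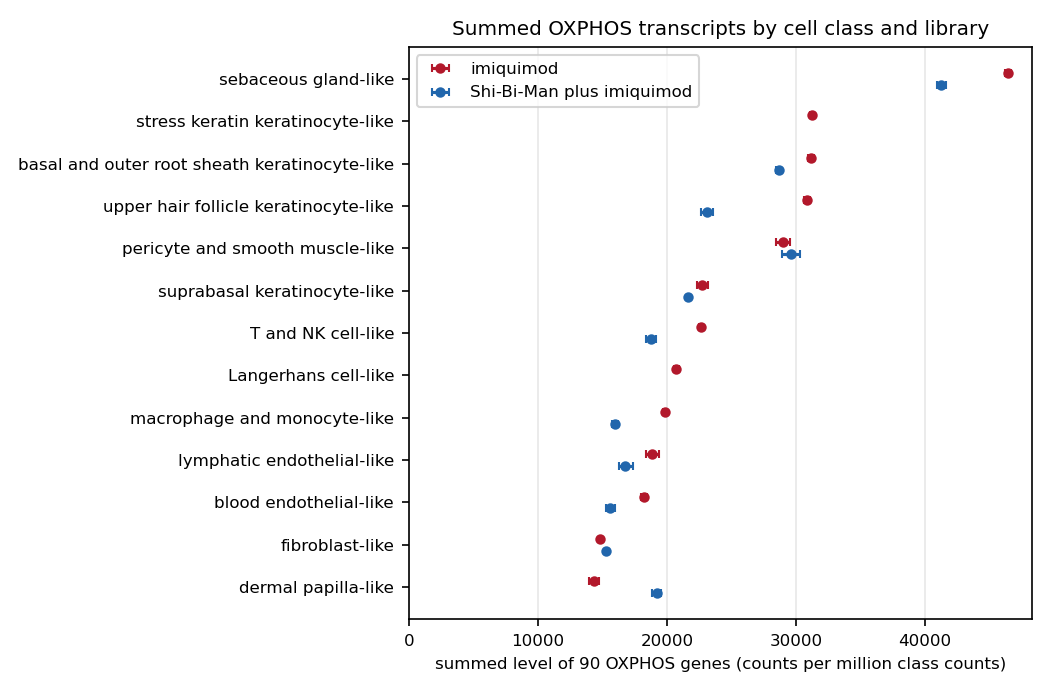
Summed level of the 90 genes in each cell class, in CPM of the class; points are the 2 libraries, 1 library per group, and bars are 95% Poisson intervals that cover counting error only. Sebaceous gland-like cells are highest in both libraries (46442 and 41282 CPM), and dermal papilla-like cells move from 14378 CPM with imiquimod to 19205 CPM with the combination.

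Taken gene by gene, 70 of the 90 members had their highest class in sebaceous gland-like cells in the imiquimod library, where 12.8% of 13824 genes did (those with at least 100 counts over both libraries). With the combination it was 69 of 90, against 12.1%. By complex, the counts in the imiquimod and the combination library were 33 and 30 of 37 for complex I, 7 and 7 of 8 for complex III and 15 and 14 of 17 for complex V. They were 10 and 9 of 16 for complex IV, 2 and 2 of 4 for complex II and 3 and 7 of 8 for the assembly factors. All genes share the same cells and totals within a library, so these counts are not independent of each other.

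Ndufab1, the mitochondrial acyl carrier protein that is also a subunit of complex I, had the largest sebaceous excess over the median class among subunits of complex I, 3.82-fold and 4.17-fold. It was at 433 CPM in sebaceous gland-like cells against 172 in the next class, basal and outer root sheath keratinocyte-like cells, with imiquimod. With the combination the values were 404 and 196 CPM. Acyl carrier protein also serves fatty acid synthesis within mitochondria. Ndufb9, an accessory subunit of complex I, reached 709 and 639 CPM in sebaceous gland-like cells, and Ndufa10 415 and 389 CPM. Among the catalytic subunits, Ndufs1, which carries iron-sulfur clusters, had 119 and 112 CPM there against 53.4 and 50.9 over all cells. Uqcrq, a small subunit of complex III, reached 1516 and 1508 CPM. Atp5b, the catalytic beta subunit of ATP synthase, was at 1178 and 1142 CPM in sebaceous gland-like cells and at 351 and 375 CPM in fibroblast-like cells.

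Levels of the complexes varied together across classes. Across the 13 classes of the imiquimod library, Pearson's r between the level of complex I and that of complexes III, IV and V was 0.97 each, and 0.83 for complex II. Across the 11 classes of the other library it was 0.99, 0.95, 0.94 and 0.80. The mitochondrially encoded subunits are no members, and 9 of 13 had at least 20 counts over all cells. They followed the summed members with r of 0.79 and 0.92, while cytosolic ribosomal proteins did so with 0.37 and 0.12. Median depth of a class gave 0.52 and 0.46. These coefficients are descriptions: the points of a library share its preparation, and all levels in a class share 1 total.

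**Figure D2:**
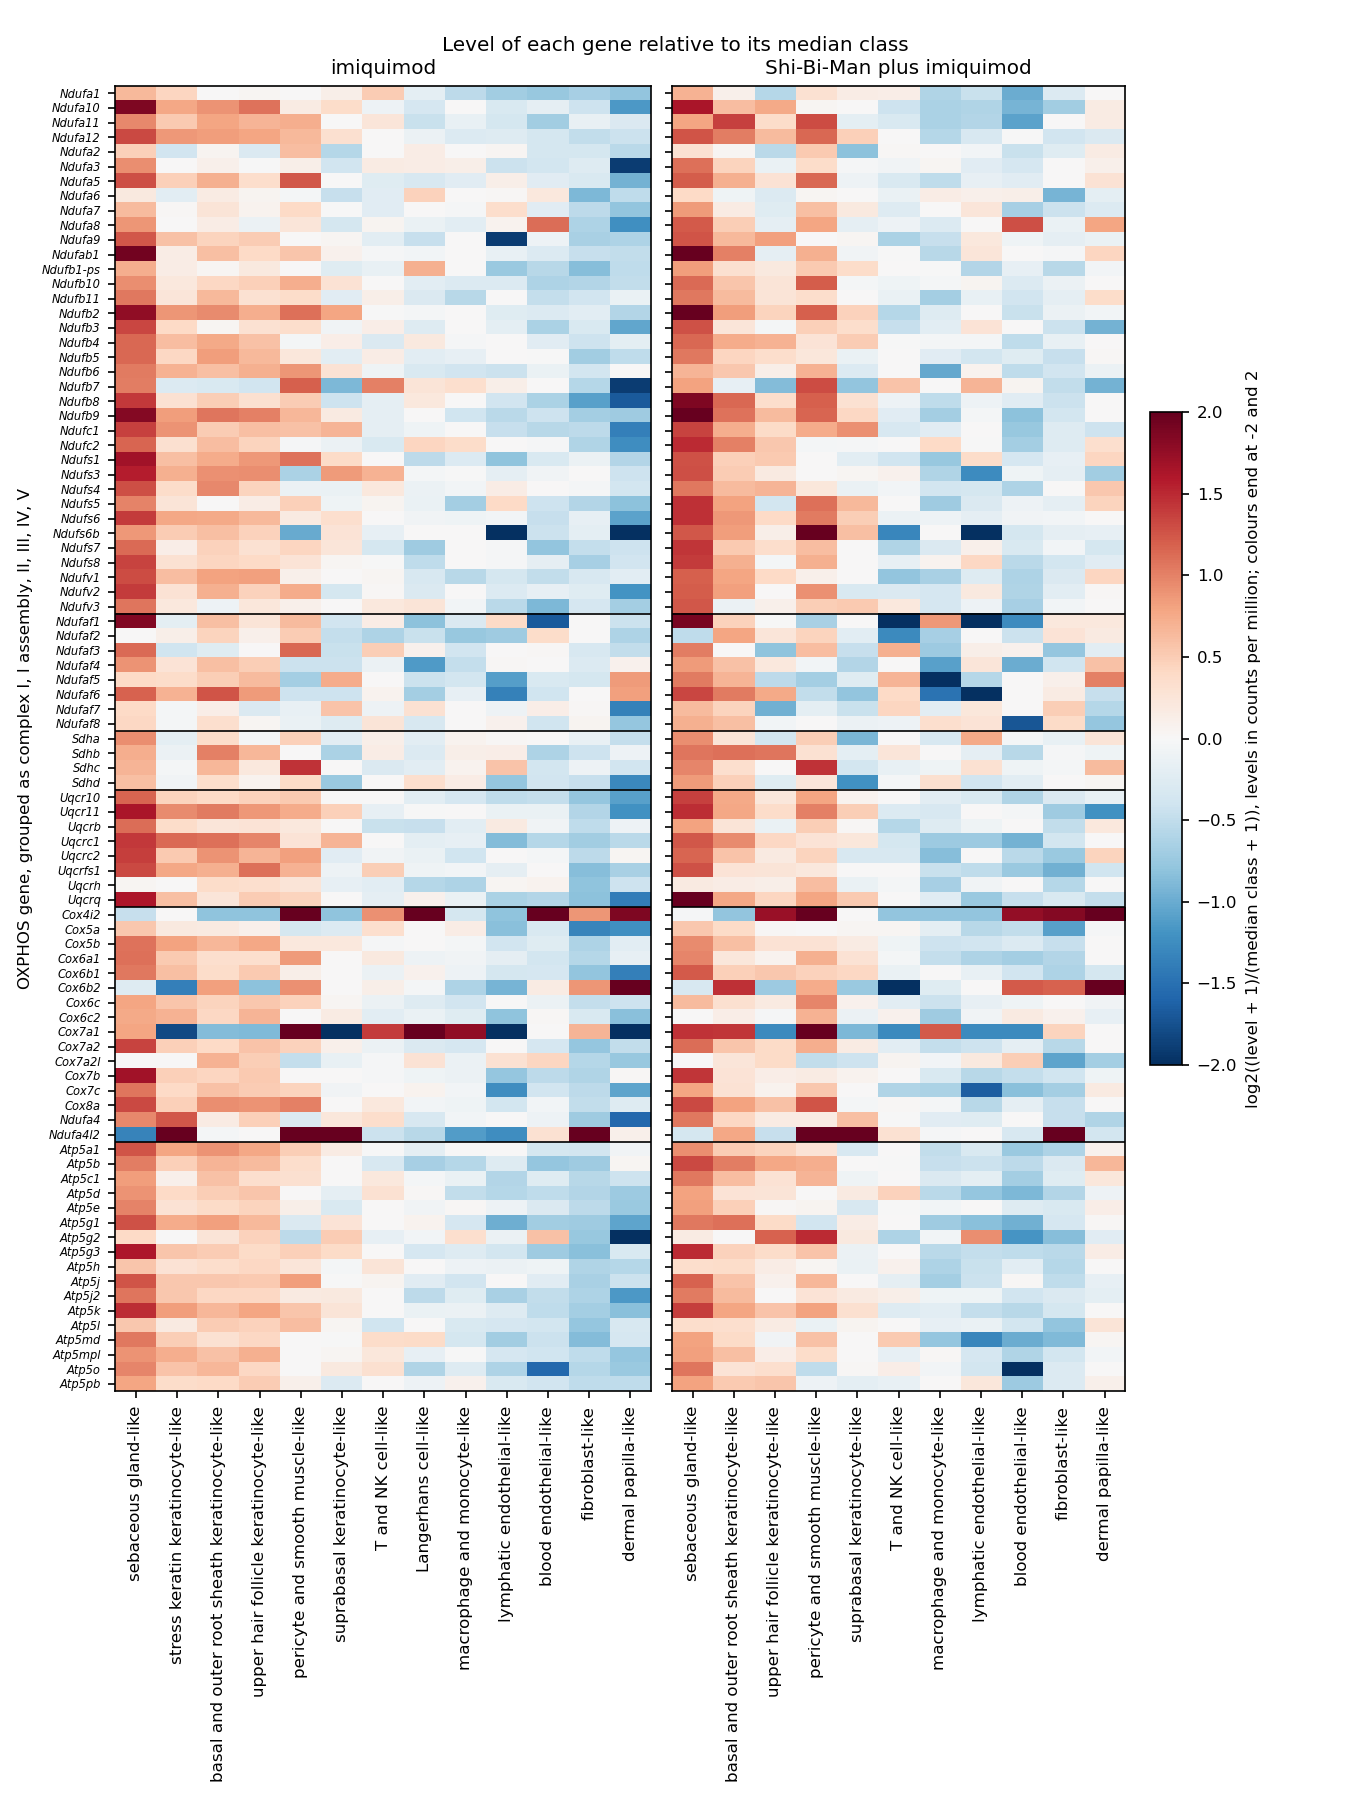
Level of the genes in each class, each relative to its own median class and with 1 member left out, as log2 of CPM with 1 added, for both libraries; rows are grouped by complex and colours end at -2 and 2. The sebaceous gland-like column is red for most genes of every complex, and the rows of Cox4i2, Cox6b2, Cox7a1 and Ndufa4l2 follow patterns of their own.

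Most members were broadly present. The highest class exceeded the median class by a median of 2.22-fold with imiquimod and 2.28-fold with the combination, against 3.05-fold and 3.22-fold over all 13824 genes. Only 4 of 90 members reached 4-fold in the imiquimod library, where 40% of genes did, and all 4 belonged to complex IV. In the other library 9 of 90 did, against 41.7% of genes. All these genes were not matched to the members in abundance, and genes with few counts can pass 4-fold by counting error. The 4 members with imiquimod had 239 (Cox7a1), 294 (Cox4i2), 454 (Cox6b2) and 7815 (Ndufa4l2) counts over both libraries. The part of abundance in the contrast with all genes was not tested.

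Cox4i2 encodes the isoform of subunit IV that is known to be induced by low oxygen (chr2:152754173-152765037, plus strand, GRCm38). In pericyte and smooth muscle-like cells it was at 283 CPM [233, 339] with imiquimod and 201 CPM [148, 266] with the combination, from 115 and 48 counts, a log2 ratio of -0.49 [-1.01, 0.00]. The next classes were far lower: blood endothelial-like cells at 25.9 CPM in the first library and dermal papilla-like cells at 29.7 CPM in the second. In basal and outer root sheath keratinocyte-like cells Cox4i2 had 0 counts in both libraries, which allows up to 1.37 and 1.27 CPM. At a depth thinned to 500 counts per cell, 9.73% and 10.1% of pericyte and smooth muscle-like cells held a count, and 25.7% and 16.9% without thinning. Of T and NK cell-like cells 0 of 2514 and 0 of 509 did after thinning; median depths were 1609 and 1188 counts in the pericyte class and 1006.5 and 780 in the T and NK class. Since Cox4i1 is listed at 0, no share of the 2 isoforms can be given.

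Cox6b2, the isoform of subunit VIb known from testis (chr7:4751792-4753094, minus strand, GRCm38), was highest in dermal papilla-like cells. It had 149 CPM [113, 194] there with imiquimod and 32.5 CPM [20.6, 48.8] with the combination, from 56 and 23 counts, a log2 ratio of -2.18 [-2.97, -1.48]. No other compared class passed 14.7 CPM with imiquimod or 14.4 CPM with the combination. Cox6b2 made up 36.6% of the summed counts of Cox6b1 and Cox6b2 in dermal papilla-like cells of the imiquimod library and 7.93% in the other, where the share over all cells was 1.21% and 1.43%. Cells with a count of Cox6b2 were 6.96% and 1.48% of the class after thinning and 14.3% and 4.22% before it. In T and NK cell-like cells the thinned shares were 0.398% and 0%, the latter from 0 of 509 cells. The opposite direction of the summed members in the same cells is described below.

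Cox7a1, the heart and muscle isoform of subunit VIIa (chr7:30184144-30186078, plus strand, GRCm38), was low throughout. Its highest class in the imiquimod library was Langerhans cell-like at 22.4 CPM from 41 counts, beside pericyte and smooth muscle-like cells at 22.1 CPM from 9 counts. With the combination the pericyte and smooth muscle-like class had 29.3 CPM from 7 counts. Over all cells Cox7a1 was lower in the second library, at 6.55 and 2.59 CPM, a log2 ratio of -1.33 [-1.80, -0.89]. T and NK cell-like cells held 32 counts in the first library and 0 in the second, which allows up to 6.12 CPM against 10.4 CPM.

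Ndufa4l2 (chr10:127514967-127517154, plus strand, GRCm38) is a paralog of Ndufa4, known as a target of hypoxia-inducible factor. In pericyte and smooth muscle-like cells its level was 317 CPM [265, 377] and 326 CPM [258, 407] in the 2 libraries, a log2 ratio of 0.04 [-0.38, 0.46]. Suprabasal keratinocyte-like cells had 249 CPM [209, 295] with imiquimod and 560 CPM [542, 578] with the combination, a log2 ratio of 1.16 [0.92, 1.43]. The markers of that class moved with it: suprabasal keratinocyte markers summed to 24422 and 63972 CPM, basal and outer root sheath keratinocyte markers to 14640 and 5807 CPM and granular keratinocyte markers to 830 and 3380 CPM, and their part in the result was not tested. In fibroblast-like cells Ndufa4l2 was at 108 and 280 CPM, a log2 ratio of 1.37 [1.22, 1.52]. Stress keratin keratinocyte-like cells, compared with imiquimod only, had 221 CPM. The other compared classes had at most 21.7 CPM with imiquimod and 79.2 CPM with the combination, below each of these 4 classes.

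Over all cells Ndufa4l2 was at 67.0 and 283 CPM, a log2 ratio of 2.08 [2.003, 2.15], the largest of the 90 members in either direction. The makeup of the libraries differed as well, with 179 suprabasal keratinocyte-like cells in the imiquimod and 1705 in the combination library. Low levels were also higher in classes with little of the gene: 12.7 and 57.1 CPM in the T and NK cell-like class, 6.27 and 35.6 CPM in sebaceous gland-like and 16.9 and 79.2 CPM in basal and outer root sheath keratinocyte-like cells. In the T and NK cell-like class the 13 suprabasal keratinocyte markers summed to 1423 and 4229 CPM, with 11 of 13 detected in each library. Whether free RNA accounts for these low levels was not tested. After thinning to 500 counts, 13.7% and 14.3% of pericyte and smooth muscle-like cells, 10.6% and 19.9% of suprabasal keratinocyte-like cells and 5.13% and 10.95% of fibroblast-like cells held a count of Ndufa4l2. In T and NK cell-like cells the share was 0.597% and 2.55%. Without thinning the shares were 33.6% and 28.0%, 33.0% and 61.6%, and 15.6% and 30.04%, at median depths of 2341 and 3706 counts in the suprabasal and 1943 and 2065.5 counts in the fibroblast-like class.

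The fibroblast-like difference in Ndufa4l2 was not shared by all clusters of that class. Cluster 3, with 589 and 1281 cells, had 158 and 411 CPM, a log2 ratio of 1.37 [1.18, 1.58]. Cluster 5, with 565 and 440 cells, had 189 and 109 CPM, a log2 ratio of -0.79 [-1.15, -0.44], the opposite direction. Cluster 2 had 40.5 and 49.2 CPM. Cluster 10, outside the class because it was left unnamed, met the limits for 9 fibroblast markers. It had 141 and 283 CPM, a log2 ratio of 0.99 [0.35, 1.71]. In the suprabasal keratinocyte-like class both clusters present in each library had more: 313 and 666 CPM in cluster 20 and 192 and 381 CPM in cluster 24. A further cluster of 384 cells with 471 CPM held cells of the combination library only.

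As a share of Ndufa4 and Ndufa4l2 together, Ndufa4l2 was 4.96% and 22.6% over all cells. The share was 27.9% and 26.5% in pericyte and smooth muscle-like cells, 17.7% and 31.5% in suprabasal keratinocyte-like cells and 15.2% and 32.6% in fibroblast-like cells. Ndufa4 itself encodes a complex IV subunit (chr6:11900292-11907497, minus strand). A list of 12 hypoxia response genes, summed over all cells, was at 666 and 662 CPM. Of these, 1 gene was at least 1.5-fold higher, where 15% of all genes measured were, and 3 were lower, where 13.7% were. By class its summed log2 ratio was -0.37 [-0.50, -0.24] in suprabasal keratinocyte-like and -0.08 [-0.16, -0.01] in fibroblast-like cells. In pericyte and smooth muscle-like cells the list was at 0.17 [-0.11, 0.46]. It was at 0.27 [0.10, 0.44] in T and NK cell-like cells. There 5 of 11 measured genes were higher and 0 lower, where 19.3% and 16.2% of all genes were. Blood endothelial-like cells had 0.34 [0.16, 0.52], with 2 of 10 higher and 3 lower, where 13.4% and 18.5% of all genes were. Lymphatic endothelial-like cells had 0.42 [0.15, 0.70].

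**Figure D3:**
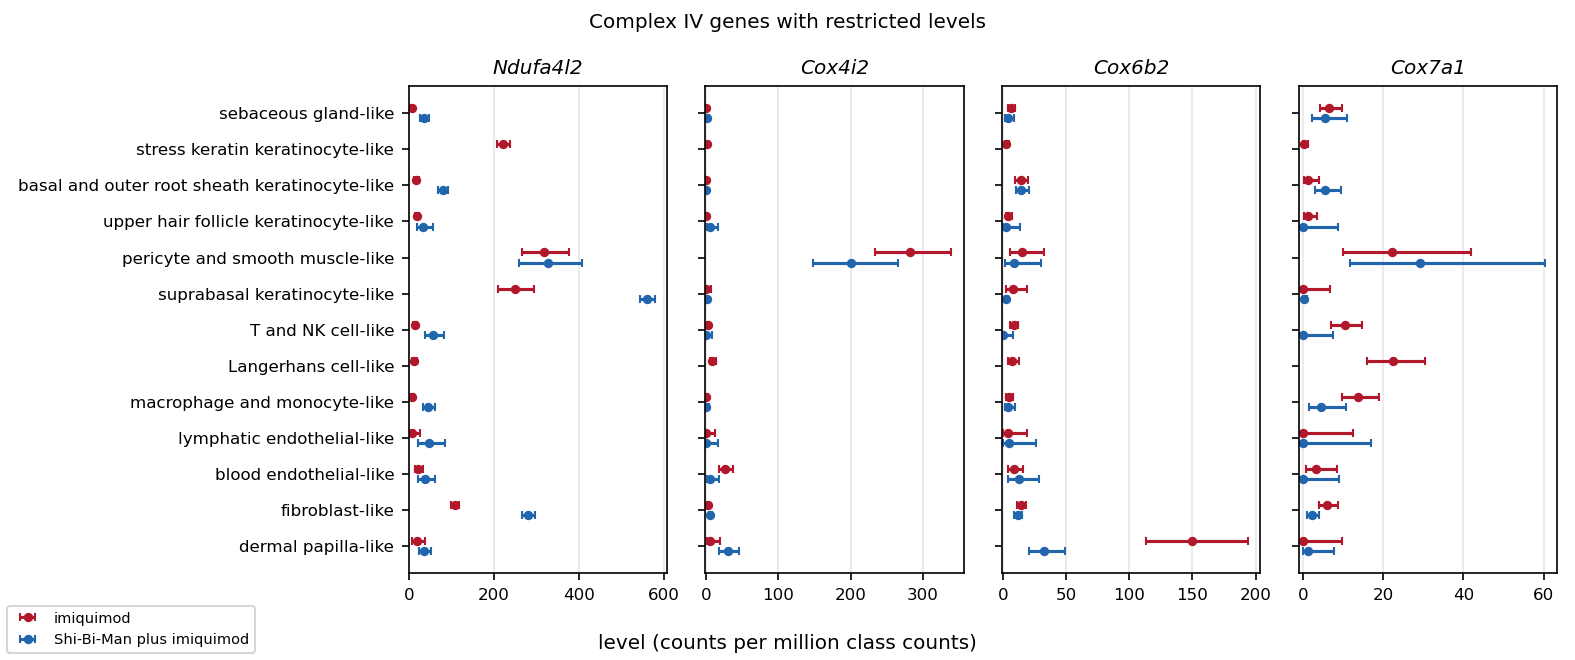
Levels of Ndufa4l2, Cox4i2, Cox6b2 and Cox7a1 by class in CPM of the class, with 95% Poisson intervals that cover counting error only; each panel has its own scale. Cox4i2 stands out in pericyte and smooth muscle-like cells (283 and 201 CPM), Cox6b2 in dermal papilla-like cells (149 and 32.5 CPM), and Ndufa4l2 in 4 classes, with 249 and 560 CPM in suprabasal keratinocyte-like cells.

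Between the libraries, the summed level of the 90 genes over all cells was 26435 CPM with imiquimod and 21687 CPM with the combination, a log2 ratio of -0.29 [-0.29, -0.28]. The difference was small but spread over nearly all members: 84 of 90 had a ratio below 0, where 46.7% of 18082 genes with at least 20 counts did, and the median member was at -0.29 against 0.035 for all genes. Few members passed 1.5-fold. There were 2 higher, where 15% of genes were, and 2 lower, where 13.7% were. With TMM scaling 1 was higher and 5 were lower, where 13.4% and 15.2% of genes were. At 200 counts or more, 2 of 90 members were higher and 2 lower, where 9.66% and 9.87% of genes were. When the clusters of the combination library were weighted to the imiquimod mix, the summed log2 ratio was -0.19.

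Every complex was lower over all cells. Complex I summed to 8653 and 7360 CPM (log2 ratio -0.23), complex II to 485 and 389 (-0.32), complex III to 3793 and 3000 (-0.34), complex IV to 6926 and 5615 (-0.30) and complex V to 6340 and 5117 (-0.31). The assembly factors of complex I summed to 238 and 207 CPM (-0.20). Mitochondrially encoded subunits did not share this direction over all cells: 13 genes summed to 32260 and 33949 CPM, a log2 ratio of 0.07. Of these, mt-Co2, mt-Co3 and mt-Atp6, named after their values were seen, were at or below 0.845 CPM in both libraries over all cells. Only 9 of the 13 subunits had at least 20 counts over all cells, and 8 or fewer did in each class. The sum therefore rests on a part of the subunits. By class their sum was at -0.14 in macrophage and monocyte-like, -0.10 in lymphatic endothelial-like and -0.45 in suprabasal keratinocyte-like cells. In T and NK cell-like, blood endothelial-like and sebaceous gland-like cells it was at 0.08, 0.04 and 0.15. The 16 genes of the tricarboxylic acid cycle, which feeds the chain with electrons, summed to 1993 and 1656 CPM (-0.27), with none past 1.5-fold. Glycolytic genes summed to 3391 and 2686 CPM (-0.34) and mitochondrial ribosomal proteins to 4750 and 4181 CPM (-0.18). Assembly genes outside the name rule were at -0.08 for cytochrome c with complexes III and IV and at -0.13 for complexes I, II and V. Regulators of mitochondrial biogenesis were at -0.04 and cytosolic ribosomal proteins at -0.03.

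Within classes the direction was mostly the same. Upper hair follicle keratinocyte-like cells had 30864 and 23086 CPM, a log2 ratio of -0.42 [-0.45, -0.39], and 113 cells in the second library. In that class the stress keratin keratinocyte markers summed to 5804 and 2896 CPM and fibroblast markers to 793 and 1876 CPM, whose part in the result was not tested. Macrophage and monocyte-like cells had 19880 and 16001 CPM (-0.31 [-0.34, -0.29]) and T and NK cell-like cells 22623 and 18751 CPM (-0.27 [-0.30, -0.24]). Blood endothelial-like cells followed at -0.22, sebaceous gland-like and lymphatic endothelial-like cells both at -0.17 and basal and outer root sheath keratinocyte-like cells at -0.12. Pericyte and smooth muscle-like cells did not differ beyond counting error, with 29017 and 29628 CPM and a log2 ratio of 0.03 [-0.01, 0.07]. Suprabasal keratinocyte-like cells were at -0.07, which changed sign with TMM scaling (0.36). The median gene of that class was at -0.28 and the median member at -0.12. Within its clusters 20 and 24 the log2 ratios were -0.20 and -0.16.

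In macrophage and monocyte-like cells 81 of 87 measured members, those with at least 20 counts in the class, had a ratio below 0, where 48.2% of genes measured did, and the median was -0.32, against 0.02 for those genes. Past 1.5-fold, 2 members were higher, where 13.8% of genes were, and 6 were lower, where 11.6% were. DESeq2 scaling gave 2 and 12, where 10.8% and 14.8% of genes were. At 200 counts or more, 0 of 70 members were higher and 4 lower, where 5.52% and 5.92% of genes were. The lower share is then close to that of all genes so measured. Cox5a, a nuclear subunit of complex IV, was at 434 and 289 CPM, a log2 ratio of -0.59 [-0.77, -0.41]. Ndufab1 was at 113 and 65.7 CPM (-0.78 [-1.18, -0.41]) and Ndufb9 at 150 and 99.0 CPM (-0.60 [-0.92, -0.29]). All 5 complexes were lower in this class, from -0.28 for complex V to -0.36 for complex III.

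In T and NK cell-like cells 73 of 88 measured members were below 0, where 47.9% of genes measured were, and the median was -0.23 against 0.03. Higher past 1.5-fold were 4 members, where 19.3% of genes were, and lower were 12, where 16.2% were; 3 of the 12 had 3 or fewer counts in a library. TMM scaling gave 2 higher and 23 lower, where 14.6% and 21.5% of genes were. At 200 counts or more, 0 of 72 members were higher and 8 lower, where 8.42% and 11.4% of genes were. The lower share is then close to that of all genes so measured. Ndufv1, the subunit that binds NADH, was at 89.2 and 46.9 CPM, a log2 ratio of -0.90 [-1.61, -0.31]. Ndufa4 was at 1258 and 794 CPM (-0.66 [-0.82, -0.51]). Complexes I and IV were at -0.30 and -0.35, and complex V at -0.16. The second library held 509 cells of this class against 2514.

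Blood endothelial-like cells had 4 of 82 members higher, where 13.4% of genes were, and 11 lower, where 18.5% were. At 200 counts or more, 0 of 50 members were higher and 4 lower, where 7.99% and 7.71% of genes were. Ndufc2, an accessory subunit of complex I, had 156 and 75.1 CPM, a log2 ratio of -1.04 [-1.66, -0.50]. In the other direction Ndufb3, another accessory subunit, had 67.7 and 102 CPM (0.60 [0.01, 1.14]). Ndufaf2, an assembly factor of complex I, had 80.3 and 33.9 CPM (-1.20 [-2.17, -0.43]), from 96 and 14 counts. The 8 assembly factors together were at 220 and 136 CPM, -0.69 [-1.14, -0.28]. Ndufaf2 was also lower in sebaceous gland-like cells, at 61.9 and 32.1 CPM (-0.94 [-1.44, -0.49]).

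Sebaceous gland-like cells had 2 of 89 members higher, where 14.7% of genes were, and 2 lower, where 9.12% were. At 200 counts or more, 1 of 80 members was higher and 1 lower, where 5.19% and 4.09% of genes were. The ratio was further below 0 for complexes IV and V than for complex I: complex IV was at -0.25 [-0.28, -0.23], complex V at -0.21, complex I at -0.10 [-0.13, -0.08] and complex II at 0.00 [-0.10, 0.11]. Their own 12 markers summed to 44190 and 44222 CPM, and the median depth was 1983 and 3088 counts. In cells with 1000 to 4000 counts, an alternative chosen after seeing the data, the summed ratio was -0.45.

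Basal and outer root sheath keratinocyte-like cells had 3 of 88 members higher, where 21.1% of genes were, and 3 lower, where 9.42% were. TMM scaling gave 3 and 7, where 15.2% and 13.9% of genes were. At 200 counts or more, 3 of 78 members were higher and 2 lower, where 12.6% and 6.31% of genes were. Cox7a2l, counted here with complex IV (chr17:83501918-83517330, minus strand), was at 640 and 417 CPM, a log2 ratio of -0.62 [-0.74, -0.50]. In the fibroblast-like class it was lower too (266 and 169 CPM, -0.66 [-0.79, -0.53]), and it was near even in blood endothelial-like cells, at 530 and 499 CPM (-0.08 [-0.32, 0.14]). Ndufa6, an accessory subunit of complex I, was at 551 and 366 CPM (-0.59 [-0.72, -0.46]) in the basal class. Uqcrfs1, the Rieske iron-sulfur protein of complex III, was at 186 and 127 CPM over all cells (-0.55 [-0.62, -0.48]) and at 281 and 156 CPM in upper hair follicle keratinocyte-like cells (-0.84 [-1.23, -0.48]).

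Ndufb8 and Ndufs5, accessory subunits of complex I, went against most other members. Over all cells 5 members had intervals above 0, these and Ndufa4l2 among them. Ndufb8 (chr19:44548572-44555440, minus strand) was at 53.3 and 81.4 CPM over all cells, a log2 ratio of 0.61 [0.51, 0.71]. It was higher in sebaceous gland-like cells (121 and 218 CPM, 0.86 [0.64, 1.07]), in basal and outer root sheath keratinocyte-like cells (63.2 and 133 CPM, 1.08 [0.79, 1.38]) and in fibroblast-like cells (20.6 and 43.9 CPM, 1.09 [0.73, 1.46]). Its macrophage and monocyte-like level was even, 44.7 and 41.6 CPM (-0.09 [-0.63, 0.40]). Ndufs5 (chr4:123712710-123718202, minus strand) was at 70.7 and 92.4 CPM over all cells (0.39 [0.29, 0.48]) and at 66.8 and 118 CPM in the basal class (0.81 [0.52, 1.12]). By contrast Ndufb7, a further accessory subunit, was at 233 and 154 CPM over all cells (-0.60 [-0.66, -0.54]).

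**Figure D4:**
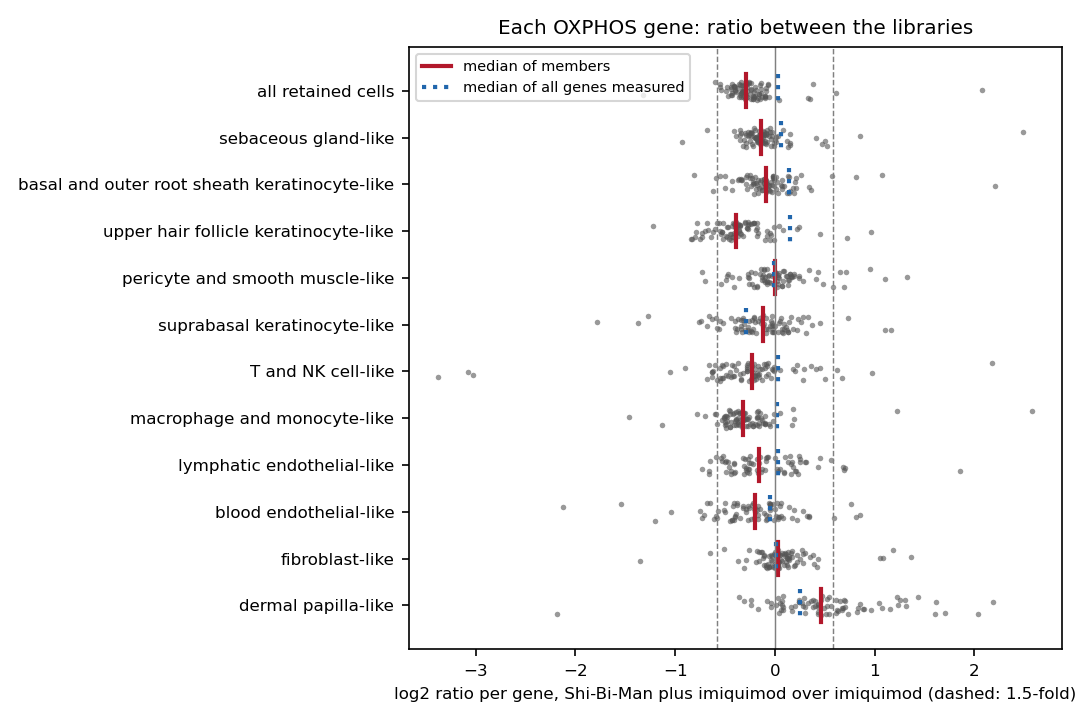
Log2 ratio of each member, combination over imiquimod, in all cells and in each class, for genes with at least 20 counts in the class; the red bar is the median of the members and the blue dotted bar that of all genes measured, and dashed lines mark 1.5-fold. Over all cells the members' median is -0.29 against 0.035, and in dermal papilla-like cells it is 0.46 against 0.25; the 3 points farthest left in T and NK cell-like cells have 3 or fewer counts in a library.

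In dermal papilla-like cells the direction was the opposite, with the members higher in the combination library: 14378 and 19205 CPM, a log2 ratio of 0.42 [0.37, 0.46]. TMM scaling gave 0.24. Of 83 measured members 32 were at least 1.5-fold higher, where 32% of 7217 genes were, and 1 was lower, where 13.1% were. The count of higher members is therefore close to that of all genes measured in this class, in which the median gene was itself at 0.25 and the median member at 0.46. Among genes with at least 200 counts 12 of 41 members and 22.0% of 930 genes were higher. With TMM scaling 20 members were higher, where 24.5% of genes were.

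By complex, the dermal papilla-like difference was 4487 and 6558 CPM for complex I (0.55 [0.47, 0.63]). There 15 of 36 members were at least 1.5-fold higher, where 32% of all genes measured in the class were. It was 3665 and 5153 CPM for complex V (0.49 [0.40, 0.58]), with 6 of 16. Complex II was at 320 and 416 CPM (0.37 [0.07, 0.70]), complex III at 1946 and 2407 (0.31 [0.18, 0.43]) and complex IV at 3790 and 4471 (0.24 [0.15, 0.33]). At least 1.5-fold higher were 3 of 4 members of complex II, 1 of 8 of complex III and 6 of 15 of complex IV. Within complex II the flavoprotein Sdha was at 66.7 and 110 CPM and the membrane anchor Sdhd at 40.0 and 86.3 CPM. The iron-sulfur subunit Sdhb was at 163 and 127 CPM, -0.36 [-0.84, 0.14], an interval that includes 0.

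The members furthest up among those with at least 100 counts in this class were accessory subunits. Ndufa3 of complex I was at 125 and 415 CPM, a log2 ratio of 1.71 [1.28, 2.20]. Ndufa8, also of complex I, was at 50.7 and 158 CPM (1.61 [0.93, 2.43]), and Cox7c of complex IV at 42.7 and 133 CPM (1.60 [0.87, 2.50]). The catalytic Ndufv2 was at 53.4 and 134 CPM (1.30 [0.63, 2.11]) and Uqcrc1, a core protein of complex III, at 192 and 296 CPM (0.62 [0.23, 1.03]). Cox5a was at 165 and 325 CPM (0.97 [0.57, 1.40]).

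Most other mitochondrial lists also had summed ratios above 0 in dermal papilla-like cells. Of all genes measured there, 32% were at least 1.5-fold higher and 13.1% were lower. Mitochondrially encoded subunits summed to 21857 and 30837 CPM (0.50 [0.46, 0.53]), and tricarboxylic acid cycle genes to 1372 and 2040 CPM (0.57 [0.43, 0.72]), with 8 of 16 higher. Mitochondrial ribosomal proteins summed to 2997 and 3799 CPM (0.34), with 23 of 67 higher and 4 lower. Assembly genes outside the name rule summed to 929 and 1143 CPM for cytochrome c with complexes III and IV (0.30, 7 of 17 higher and 1 lower) and to 544 and 777 CPM for complexes I, II and V (0.51, 4 of 5 higher). Regulators of mitochondrial biogenesis went the other way in their sum, at 411 and 347 CPM (-0.25 [-0.54, 0.05]), with none of 4 higher and 2 lower. Glycolytic genes were at 2325 and 2149 CPM (-0.11 [-0.23, 0.01]) and cytosolic ribosomal proteins at -0.02. The 12 dermal papilla markers, of which 11 were detected in each library, summed to 5498 and 6813 CPM. Fibroblast markers summed to 2909 and 4720 CPM, upper hair follicle keratinocyte markers to 1102 and 265 CPM, and the erythroid list to 4682 and 14.1 CPM. The class held 273 and 474 cells at median depths of 723 and 1118.5 counts, and the part of these differences in the result was not tested. In cells with 1000 to 4000 counts the summed ratio was 0.38.

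Fibroblast-like cells showed almost no difference: 14844 and 15314 CPM, a log2 ratio of 0.045 [0.03, 0.06], which was -0.021 as a mean over cells. Of 90 members 4 were higher, where 10% of genes were, and 2 were lower, where 10.8% were. At 200 counts or more, 3 of 80 members were higher and 1 lower, where 4.14% and 5.74% of genes were. The clusters differed in size of effect. Cluster 5 had 15620 and 19771 CPM (0.34 [0.31, 0.37]), cluster 3 had 0.13 [0.11, 0.16], and clusters 2 and 7 had 0.05 and 0.09. Besides Ndufa4l2 and Ndufb8, Uqcrc1 was higher at 173 and 228 CPM (0.40 [0.26, 0.53]) and Cox6c at 588 and 770 CPM (0.39 [0.32, 0.46]). Atp5a1, the alpha subunit of ATP synthase, was even at 225 and 221 CPM (-0.03 [-0.15, 0.10]).

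**Figure D5:**
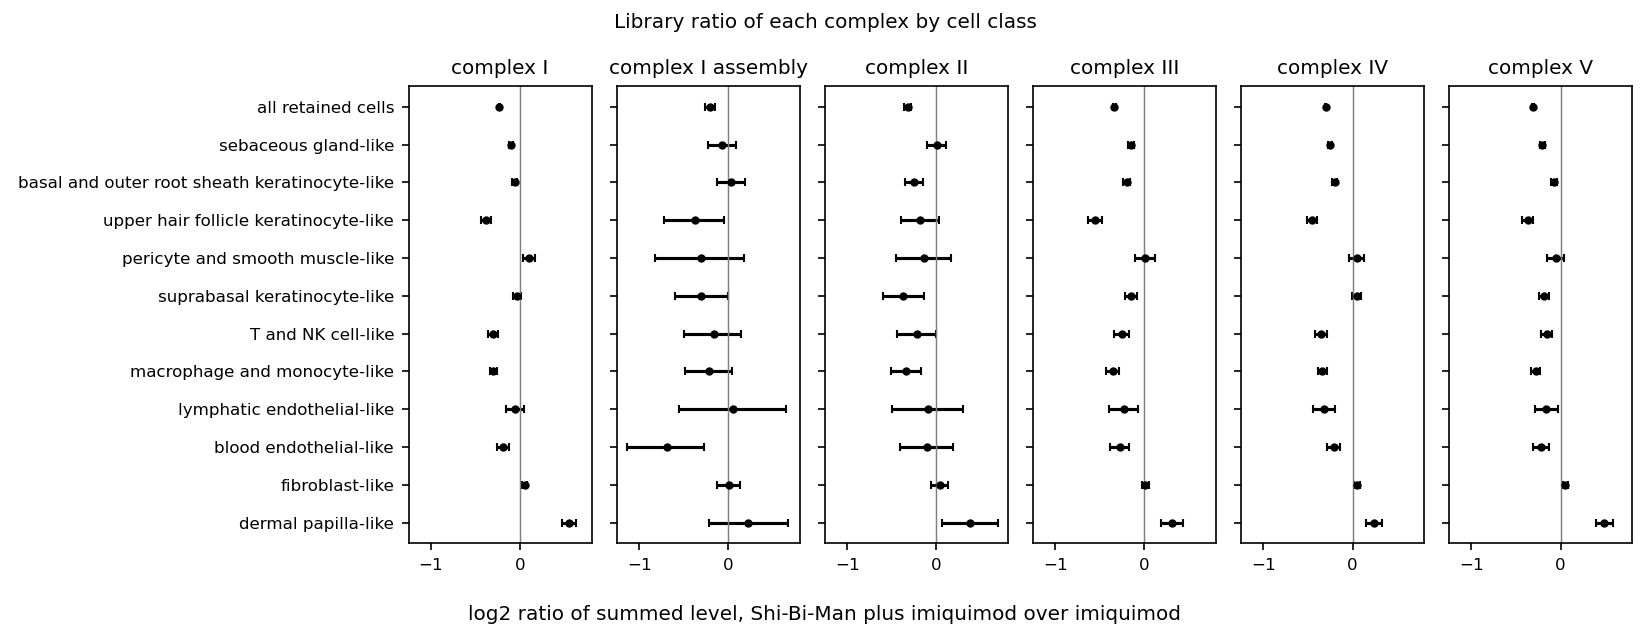
Log2 ratio of the summed level of each complex, combination over imiquimod, by class; bars are 95% intervals that cover counting error only. Complexes I and V reach 0.55 and 0.49 in dermal papilla-like cells, while all 5 complexes are below 0 in macrophage and monocyte-like cells, from -0.28 to -0.36.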

How the data were processed

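Matrices of raw counts for each gene in each barcode were deposited, as integers per the file headers. Per the labels' protocols the libraries are 3′ transcriptome libraries of dorsal skin. Per the submitters' processing notes the builds were mm10 and GRCm38. How reads were aligned and counted, how cells were called and whether molecules were collapsed is not given in the sources used here, so a count may not be 1 molecule and the intervals treat counts as independent.

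Barcodes with under 200 genes or over 20% mitochondrial counts were left out. Scrublet, at an assumed rate of 0.08, marked 83 of 7946 cells (1.04%) of skin given Shi-Bi-Man, which were removed. It marked 0 of 11019 in the imiquimod library and so did not work there, and doublets remain. Both libraries were clustered together without integration with scanpy 1.11.5 (2000 variable genes without members and mitochondrially encoded genes, 30 components, 15 neighbours, Leiden resolution 1, igraph 0.11.9). A class was named where at least 3 of its markers were 2-fold higher than in other cells and present in 10% of a cluster's cells. A cluster stayed unnamed if its 10 most raised genes, among those in 25% of its cells, held more markers of another class. This applied to cluster 10, with 9 fibroblast markers, and cluster 25, with 8 basal and outer root sheath keratinocyte markers. The 3 clusters left unnamed held 163 and 278 cells, and classes were rebuilt here, not taken from the authors.

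Counts were summed per class and library and divided by the class total. Log2 ratios added 0.5 counts to each side, with exact conditional binomial intervals. Shares have Clopper-Pearson intervals and levels Poisson intervals, from scipy 1.17.1. Classes with at least 100 cells in each library were compared, and counts past 1.5-fold were made for all cells and the 7 classes with at least 200. A gene counted as measured with at least 20 counts in the class. A count of 0 was given the limit that 3 counts allow. Scaling alternatives used edgeR 4.0.16 for TMM factors and DESeq2 1.42.0 for size factors, in R 4.3.3. The ratio, its interval and the 1.5-fold limit were tested on simulated Poisson counts with means of at least 200 and all-cell totals. Smaller classes, lower counts and the other steps were not simulated. Coordinates come from the GENCODE vM21 annotation of GRCm38. Members, gene lists, markers and rules were chosen with earlier results of these data known. Named genes were the isoform families, the core subunits, the 3 highest and 3 lowest ratios per class among members with at least 100 counts, the 8 members most restricted to a class and those nearest the count limit. The single values of 1 member are not reported here.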

Additional observations from a re-analysis of the deposited data

Results flagged for a closer look

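The summed members had log2 ratios (Shi-Bi-Man plus imiquimod over imiquimod) of 0.42 in dermal papilla-like cells and 0.045 in fibroblast-like cells, with intervals above 0, while upper hair follicle keratinocyte-like, macrophage and monocyte-like, T and NK cell-like, blood endothelial-like, lymphatic endothelial-like, sebaceous gland-like, basal and outer root sheath keratinocyte-like and suprabasal keratinocyte-like cells had ratios below 0. These differences between classes were not tested, since each treatment has 1 library. The fibroblast-like value was -0.021 as a mean over cells.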

How the results depend on the processing

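Of the comparisons of 48 results with their values under 21 settings, 278 stayed within counting error or 1.5 times of the count, 146 moved further, and 7 values whose interval lay off 0 changed sign. The ratios of upper hair follicle keratinocyte-like, macrophage and monocyte-like, T and NK cell-like, blood endothelial-like, lymphatic endothelial-like, sebaceous gland-like, basal and outer root sheath keratinocyte-like and dermal papilla-like cells kept their sign under each setting that gave a value; suprabasal and fibroblast-like cells did not, and the pericyte value, whose interval included 0, lay below 0 with TMM factors (-0.030) and at most 10% mitochondrial counts (-0.0091). The log2 shift subtracted with TMM factors was 0.13 (T and NK), 0.16 (basal), 0.18 (dermal papilla), 0.25 (upper hair follicle) and -0.43 (suprabasal). Values that moved follow by setting, with the class in parentheses and all class names shortened; beside a count of members stands the percentage of all genes measured there that passed the same limit. At a fold limit of 5 to 4, members higher numbered 5 (all cells, 26.4%), 8 (T and NK, 32.1%), 6 (basal, 35.9%), 53 (dermal papilla, 45.8%), 9 (fibroblast, 21.8%) and 6 (sebaceous, 28.8%), and members lower numbered 33 (all cells, 22.7%), 34 (T and NK, 27.7%), 13 (basal, 18.5%), 28 (blood endothelial, 31.1%), 2 (dermal papilla, 20.5%), 4 (fibroblast, 20.3%), 43 (macrophage, 23.3%) and 8 (sebaceous, 18.4%). At 2-fold, members higher numbered 1 (all cells, 6.85%), 1 (T and NK, 7.87%), 0 (blood endothelial, 3.99%), 14 (dermal papilla, 17%) and 1 (sebaceous, 4.93%), and members lower numbered 1 (all cells, 7.48%), 4 (T and NK, 7.13%), 0 (basal, 3.41%), 4 (blood endothelial, 8.55%), 1 (fibroblast, 4.88%), 2 (macrophage, 4.82%) and 0 (sebaceous, 4.03%). With 5% of the all-cell profile subtracted as free RNA, the summed log2 ratio was 0.47 (dermal papilla) and 0.074 (fibroblast). With DESeq2 size factors, the summed log2 ratio was -0.35 (all cells), -0.39 (T and NK), -0.24 (basal), 0.26 (dermal papilla), 0.063 (fibroblast), -0.28 (lymphatic), -0.40 (macrophage), -0.28 (sebaceous), 0.36 (suprabasal) and -0.65 (upper hair follicle). There, members higher numbered 1 (all cells, 13.3%), 2 (T and NK, 15%) and 20 (dermal papilla, 25.5%) and members lower numbered 5 (all cells, 15.2%), 23 (T and NK, 20.9%), 6 (basal, 12.7%) and 12 (macrophage, 14.8%). With TMM factors, the summed log2 ratio was -0.34 (all cells), -0.41 (T and NK), -0.28 (basal), 0.24 (dermal papilla), -0.24 (lymphatic), -0.38 (macrophage), -0.030 (pericyte), -0.25 (sebaceous), 0.36 (suprabasal) and -0.67 (upper hair follicle). There, members higher numbered 1 (all cells, 13.4%), 2 (T and NK, 14.6%) and 20 (dermal papilla, 24.5%) and members lower numbered 5 (all cells, 15.2%), 23 (T and NK, 21.5%) and 7 (basal, 13.9%). With genes of at least 1 count, members higher numbered 7 (blood endothelial, 23.6%), and members lower numbered 2 (dermal papilla, 24.1%). With at least 200 counts, members higher numbered 0 (T and NK, 8.42%), 0 (blood endothelial, 7.99%), 12 (dermal papilla, 22%), 0 (macrophage, 5.52%) and 1 (sebaceous, 5.19%), and members lower numbered 4 (blood endothelial, 7.71%), 0 (dermal papilla, 15.2%), 1 (fibroblast, 5.74%) and 1 (sebaceous, 4.09%). With at least 50 counts, members higher numbered 2 (T and NK, 14.1%), 2 (blood endothelial, 10.7%) and 1 (macrophage, 10.1%), and members lower numbered 1 (fibroblast, 7.91%) and 1 (sebaceous, 6.35%). With at least 500 genes per cell, the summed log2 ratio was -0.19 (basal), 0.36 (dermal papilla), 0.064 (fibroblast), -0.11 (lymphatic), 0.0039 (suprabasal) and -0.37 (upper hair follicle). There, members higher numbered 4 (sebaceous, 15.7%) and members lower numbered 1 (fibroblast, 10.4%) and 1 (sebaceous, 9.19%). With at most 10% mitochondrial counts, the summed log2 ratio was -0.28 (all cells), -0.077 (basal), 0.067 (fibroblast), -0.14 (sebaceous), -0.039 (suprabasal) and -0.38 (upper hair follicle). There, members higher numbered 2 (T and NK, 19.5%) and 5 (basal, 22%) and members lower numbered 1 (fibroblast, 10.3%). In cells with 1000 to 4000 counts, the summed log2 ratio was -0.21 (all cells), -0.18 (T and NK), -0.16 (basal), -0.089 (lymphatic), -0.45 (sebaceous), 0.078 (suprabasal) and -0.45 (upper hair follicle). With all variable genes in the clustering, the summed log2 ratio was 0.0040 (suprabasal) and -0.49 (upper hair follicle). With doublets kept, the summed log2 ratio was -0.086 (basal) and 0.063 (fibroblast), and members lower numbered 1 (basal, 9.95%) and 1 (fibroblast, 10.3%). At the imiquimod mix of clusters, the summed log2 ratio was -0.19 (all cells), 0.14 (fibroblast) and -0.18 (suprabasal), and members lower numbered 1 (all cells, 8.49%) and 1 (fibroblast, 9.94%). As a mean over cells, the summed log2 ratio was -0.24 (all cells), -0.11 (basal), -0.021 (fibroblast), -0.25 (sebaceous), 0.069 (suprabasal) and -0.46 (upper hair follicle). There, members higher numbered 1 (all cells, 17.5%), 2 (T and NK, 19.1%) and 2 (blood endothelial, 16.3%) and members lower numbered 1 (basal, 11%), 2 (dermal papilla, 16.1%) and 5 (sebaceous, 17.5%). At resolution 0.5, the summed log2 ratio was -0.16 (basal). At resolution 2, the summed log2 ratio was -0.20 (basal), -0.011 (suprabasal) and -0.37 (upper hair follicle), and members lower numbered 1 (fibroblast, 10.3%) and 1 (sebaceous, 8.84%). With a total without mitochondrially encoded and ribosomal protein genes, the summed log2 ratio was -0.15 (basal) and -0.45 (upper hair follicle). Without the cluster seen in 1 library, the summed log2 ratio was -0.027 (suprabasal).

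Of the shares of cells with a count, all 10 moved without thinning and 9 of 10 with thinning to 1000 counts. At resolution 0.5 no upper hair follicle class could be named. The settings with 1000 to 4000 counts and without the cluster seen in 1 library were chosen after seeing the data, and the cause of each change was not tested. No paired analysis was possible because each group has 1 library, and no replicate could be left out. Depth limits the restricted isoforms. With imiquimod and the combination, Cox7a1 had 9 and 7 counts in pericyte and smooth muscle-like cells, and Cox6b2 56 and 23 in dermal papilla-like cells. In Langerhans cell-like cells Cox7a1 had 41 counts with imiquimod.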
